A study of Mus musculus with 11 samples.

Results

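The genes described here are 10 components of the response to stress in the endoplasmic reticulum (ER), picked by symbol from the 20893 genes of a liver RNA-seq table: the chaperones Hspa5, Hsp90b1 and Dnajb9, the sensors Ern1 and Atf6, the transcription factors Xbp1, Atf4 and Ddit3, and the 2 stress-induced genes Herpud1 and Trib3. All 10 were found and all 10 passed the filter on low values, among 14244 genes tested. The rule that picks them uses symbols and no measured value.

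The 11 livers came from C57BL/6 mice carrying ROSA26-rtTA-IRES-EGFP, the doxycycline-dependent activator, and all mice were fed doxycycline. Controls (n = 4) were WT for the YAP transgene and received doxycycline food for 7 days, YAP mice carried tetYAP and received it for 3 days (n = 4) or for 7 days (n = 3). There was 1 library per mouse. The transgene encodes YAP S127A, a form of the Hippo pathway effector that escapes inhibition by its upstream kinases. Per the methods of the study, rtTA lies behind a stop cassette that Cre driven by the albumin promoter removes, so that the transgene is switched on in albumin-expressing cells. RNA was taken from whole homogenised livers. The labels name neither Cre in the controls nor the age or sex of the mice, and there was no 3-day control. The mouse gene Yap1 was at 18.3 ± 3.10 eRPKM in controls (SD, n = 4), 16.8 ± 1.83 at 3 days (n = 4) and 18.4 ± 0.862 at 7 days (n = 3), so it gave no check of the labels, and transgene reads were not analysed here.

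Levels are given as eRPKM, the authors' measure of exonic reads per kilobase and per library size. The reads behind the values were recovered from the steps between low values and came to between 1251396 (control liver 4) and 5941357 reads on genes (7-day liver 2). The groups differed in median depth (3152456 reads for controls, 3652719 for 3-day and 5356541 for 7-day livers). High levels moved with depth. Among the 4 controls, 59.3% of the 675 tested genes with at least 100 eRPKM in controls had levels in the exact reverse order of depth, against 4.37% of all tested genes. Albumin (Alb), the main secreted protein of hepatocytes, went from 918 eRPKM in the shallowest control to 268 in the deepest, while its reads per kilobase were 1149 to 1472 over all 11 livers. Hspa5, the most abundant of the ER stress genes, had 507 to 1164 reads per kilobase. Whether duplicate reads were removed before counting, which would hold down the values of abundant genes in deep libraries, is not given in the sources used here, and its part in the levels of Hspa5, Hsp90b1, Herpud1 and Xbp1 was not tested. Xist, which marks female livers, exceeded the Y-linked Ddx3y in control livers 2 and 3, in 3-day livers 3 and 4 and in all 3 livers at 7 days, so sex was not balanced either.

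As background, proteins that fold poorly in the ER lumen occupy HSPA5 (BiP), and this activates 3 membrane sensors. ERN1 (IRE1) splices the mRNA of Xbp1, ATF6 is cut in the Golgi to release a transcription factor, and EIF2AK3 (PERK) phosphorylates eIF2α, which slows translation and favours that of ATF4. XBP1 and ATF6 raise chaperones and components of ER-associated degradation. ATF4 raises DDIT3 (CHOP), TRIB3 and genes of amino acid supply, and other eIF2α kinases share this arm. Hepatocytes, which secrete most plasma proteins, hold a large ER and express many of these genes without added stress. RNA-seq on gene totals sees neither Xbp1 splicing nor the cleavage or phosphorylation of these proteins.

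None of the 10 genes passed the test in any comparison. The test was limma on log2(eRPKM + 0.5), with a call at an adjusted p under 0.01, by Benjamini-Hochberg over all 14244 genes, and an absolute log2 fold change above 0.5. At 3 days 0.0421% of all tested genes were called, at 7 days against control 23.8%, and at 7 days against 3 days 19.3%. At an unadjusted p under 0.05 the members counted 1, 4 and 4 in these comparisons, beside 12.1%, 47.3% and 46.2% of all tested genes. With limma-voom on the recovered reads the calls were 0, 0 and 1, the last of them lower. Of all tested genes this fit called 0.00702% higher and none lower at 3 days. It called 19.7% higher and 6.66% lower at 7 days against control, and 19.1% higher and 6.24% lower against 3 days. Against control, the median log2 fold change of the 10 was 0.02 at 3 days, where that of all tested genes was 0.02, and -0.42 at 7 days, where that of all tested genes was 0.26. At 7 days 9 of the 10 log2 fold changes were below 0 and that of Ddit3 was above 0. In a bulk liver, fewer cells of a type and less RNA per cell cannot be told apart.

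**Figure D1:**
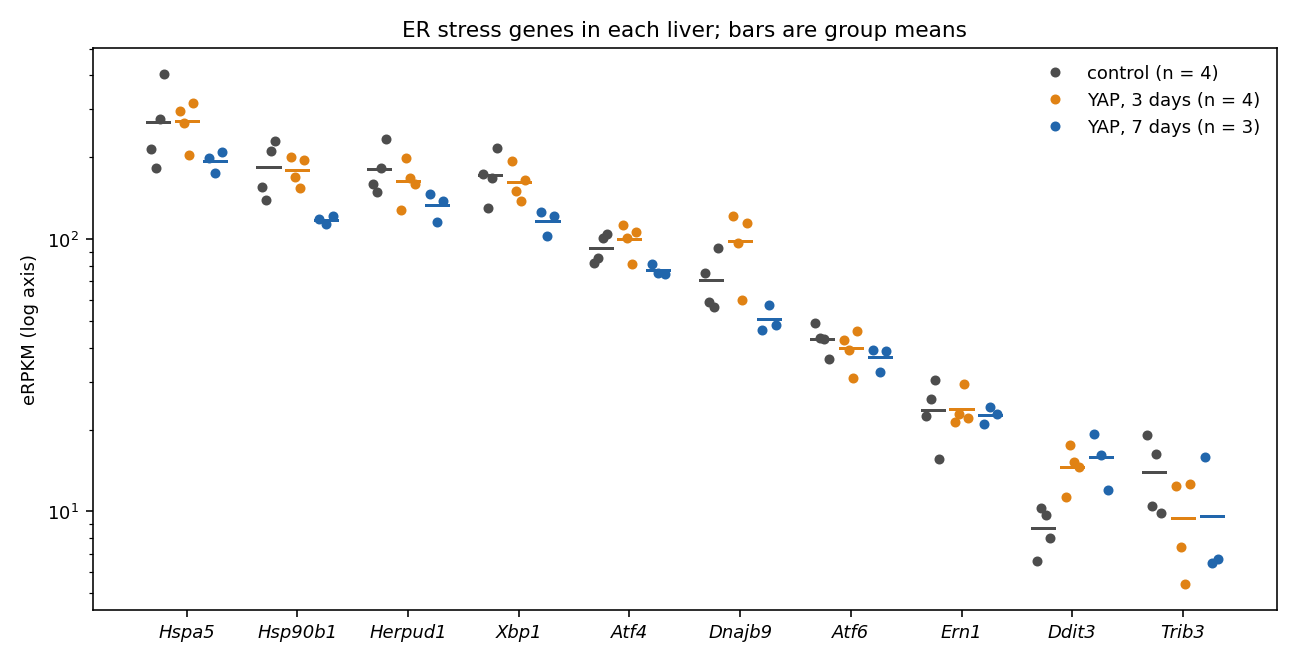
Level of each ER stress gene in each liver (eRPKM, log axis); points are livers, bars are group means, and genes are ordered by their mean over all livers. Hspa5 was the most abundant at a mean of 250.1 eRPKM and Trib3 the least at 11.1; at 7 days the 3 livers lay below all controls for Hsp90b1, Herpud1, Xbp1 and Atf4 and above them for Ddit3.

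In length-scaled levels over the 11 livers, Hspa5 stood first at a mean of 250.1 eRPKM and above the next gene, Hsp90b1, in 11 of 11 livers. Hsp90b1 (165 eRPKM), Herpud1 (162 eRPKM) and Xbp1 (153 eRPKM) did not separate from each other. Hsp90b1 exceeded Herpud1 in 3 of 11 livers, and Herpud1 exceeded Xbp1 in 8 of 11. Atf4 followed at 91.4 eRPKM and Dnajb9 at 75.3, with Atf4 above Dnajb9 in 9 of 11 livers. Atf6 (40.1 eRPKM) and Ern1 (23.4 eRPKM) kept their places in 11 of 11 livers. Ddit3 (12.8 eRPKM) and Trib3 (11.1 eRPKM) came last and changed places, with Ddit3 above Trib3 in 6 of 11 livers. The 4 most abundant genes stood at percentiles 97.5 to 99.9 of the whole table of 20893 genes in each liver, and Trib3 at 54.5 to 79.5. That table includes the genes too low to be tested, so the standing among tested genes is lower.

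Hspa5 (chr2:34627490-34632051 in mm9, plus strand) encodes BiP, the HSP70 chaperone of the ER lumen. It stood at 215, 183, 277 and 405 eRPKM in control livers 1 to 4, at 296, 268, 205 and 316 in the 3-day livers, and at 199.6, 175 and 209.7 in the 7-day livers. The highest value was that of control liver 4, the shallowest library, and the 7-day livers overlapped the lower controls. Against control it was at a log2 fold change of 0.05 at 3 days (SE 0.23, limma adjusted p = 0.949) and -0.41 at 7 days (SE 0.25, adjusted p = 0.212). The 95% interval of the 7-day difference ran from a fold of 0.519 to 1.09. With log2 depth as a covariate the 7-day value turned to 0.11 (adjusted p = 0.67), and under quantile normalization to 0.33 (adjusted p = 0.0343). In controls the levels of Hspa5 lay in the exact reverse order of depth, as did those of Hsp90b1 and Herpud1. Beside control liver 2 at 183 eRPKM, the only control near the 7-day livers in depth, 1 of the 3 7-day livers was lower.

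Hsp90b1 (chr10:86152954-86168254, minus strand) encodes GRP94, the HSP90 chaperone of the ER. Its levels were 156, 139, 211 and 230.3 eRPKM in controls, 201, 169, 155 and 195 at 3 days, and 118, 114 and 122 at 7 days. The 3 livers at 7 days were all below every control and every 3-day liver. The log2 fold change was -0.01 at 3 days (SE 0.17, limma adjusted p = 0.989) and -0.61 at 7 days (SE 0.19, adjusted p = 0.0211, exact two-sided permutation p = 0.0571, the smallest that 4 against 3 livers allow). All 3 7-day livers also lay below the deepest control, at 139 eRPKM. With log2 depth as a covariate the 7-day value was -0.26 (adjusted p = 0.16), and with the 2 deepest controls alone it was -0.32 (adjusted p = 0.133). In GENCODE M1, exons of Hsp90b1 overlap 1810014B01Rik (log2 fold change -0.71 at 7 days, limma adjusted p = 0.118), AC152453.1 and Gm15344. The libraries had no strand, and how the authors counted reads on shared exons is not known.

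Dnajb9 (chr12:45306884-45311055, minus strand) encodes ERdj4, a DNAJ cochaperone of BiP. It was at 74.9, 58.6, 56.2 and 92.8 eRPKM in controls, at 122, 96.8, 59.9 and 115 at 3 days, and at 46.5, 57.4 and 48.6 at 7 days. At 3 days 3 of 4 livers lay above all controls, and at 7 days 2 of 3 lay below them. The log2 fold change was 0.46 at 3 days (SE 0.23, limma adjusted p = 0.45) and -0.45 at 7 days (SE 0.24, adjusted p = 0.167). Between the YAP groups it was the widest of the 10 at -0.90 (SE 0.24, adjusted p = 0.0129, exact two-sided permutation p = 0.0571), a fold of 0.535 with a 95% interval of 0.371 to 0.771. The 7-day livers were all below the 3-day livers, and the difference kept its sign and ranged from -1.14 to -0.68 over all alternatives tried.

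The promoters of the 2 most abundant chaperones and of Herpud1 are printed here because all carry a sequence through which ATF6 and XBP1 are known to act. The ER stress element (ERSE) was searched on both strands as CCAAT followed, after 9 bases of any kind, by CCACG, and the related ERSE-II as ATTGG followed, after 1 base of any kind, by CCACG, in windows of 300 bases from 250 before to 50 after each gene's start, from RefSeq on GRCm38.p6. Windows were held for 9 of the 10 genes. ERSE was found in Hspa5 (1 match) and Hsp90b1 (2 matches, 1 on each strand), beside 39 of 32851 windows (0.119%), and ERSE-II in Herpud1, beside 12 windows (0.0365%). Positions are those of the single exact match of each window in mm9, and capitals mark the 2 fixed parts of ERSE, the whole of ERSE-II, and in Herpud1 also a match to the ATF4 element.
Hspa5, chr2:34627360-34627659, plus strand: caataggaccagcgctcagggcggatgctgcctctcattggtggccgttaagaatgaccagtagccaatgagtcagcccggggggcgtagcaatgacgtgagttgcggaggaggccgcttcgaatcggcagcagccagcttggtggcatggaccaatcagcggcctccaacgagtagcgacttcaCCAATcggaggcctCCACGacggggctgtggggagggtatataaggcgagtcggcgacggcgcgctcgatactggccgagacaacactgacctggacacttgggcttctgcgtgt
Hsp90b1, chr10:86168140-86168439, minus strand: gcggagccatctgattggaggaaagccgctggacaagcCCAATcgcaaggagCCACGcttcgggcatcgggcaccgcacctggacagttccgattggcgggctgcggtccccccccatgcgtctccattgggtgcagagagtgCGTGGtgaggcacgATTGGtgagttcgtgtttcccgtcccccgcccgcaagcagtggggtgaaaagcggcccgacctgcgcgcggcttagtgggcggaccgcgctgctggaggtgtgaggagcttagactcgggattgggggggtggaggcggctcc
Herpud1, chr8:96910079-96910378, plus strand: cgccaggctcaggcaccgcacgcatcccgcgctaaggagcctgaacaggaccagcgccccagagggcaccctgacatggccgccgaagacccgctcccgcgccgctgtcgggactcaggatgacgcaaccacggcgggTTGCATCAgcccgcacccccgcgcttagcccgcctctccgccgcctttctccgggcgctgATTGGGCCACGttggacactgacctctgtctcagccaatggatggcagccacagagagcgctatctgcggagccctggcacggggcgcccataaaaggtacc
The ATF4 element was searched as TGATGNAA on both strands and was found in Herpud1 and in Trib3, beside 1304 windows (3.97%). It did not overlap the ERSE-II of Herpud1. A match is a description of these letters and not evidence of binding in these livers.

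Herpud1 (chr8:96910338-96919277, plus strand) encodes an ER membrane protein of the ubiquitin ligase complex that sends misfolded proteins to degradation. It was at 159.7, 149.8, 182 and 234 eRPKM in controls, at 128, 198, 169 and 160.3 at 3 days, and at 147, 116 and 138 at 7 days. The 7-day livers were all below the controls, by a narrow margin at the deepest control (149.8 against 147 eRPKM), and overlapped the 3-day livers. Its log2 fold change against control was -0.14 at 3 days (SE 0.18, limma adjusted p = 0.788) and -0.43 at 7 days (SE 0.19, adjusted p = 0.0975). Under quantile normalization the 7-day value was 0.11.

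**Figure D2:**
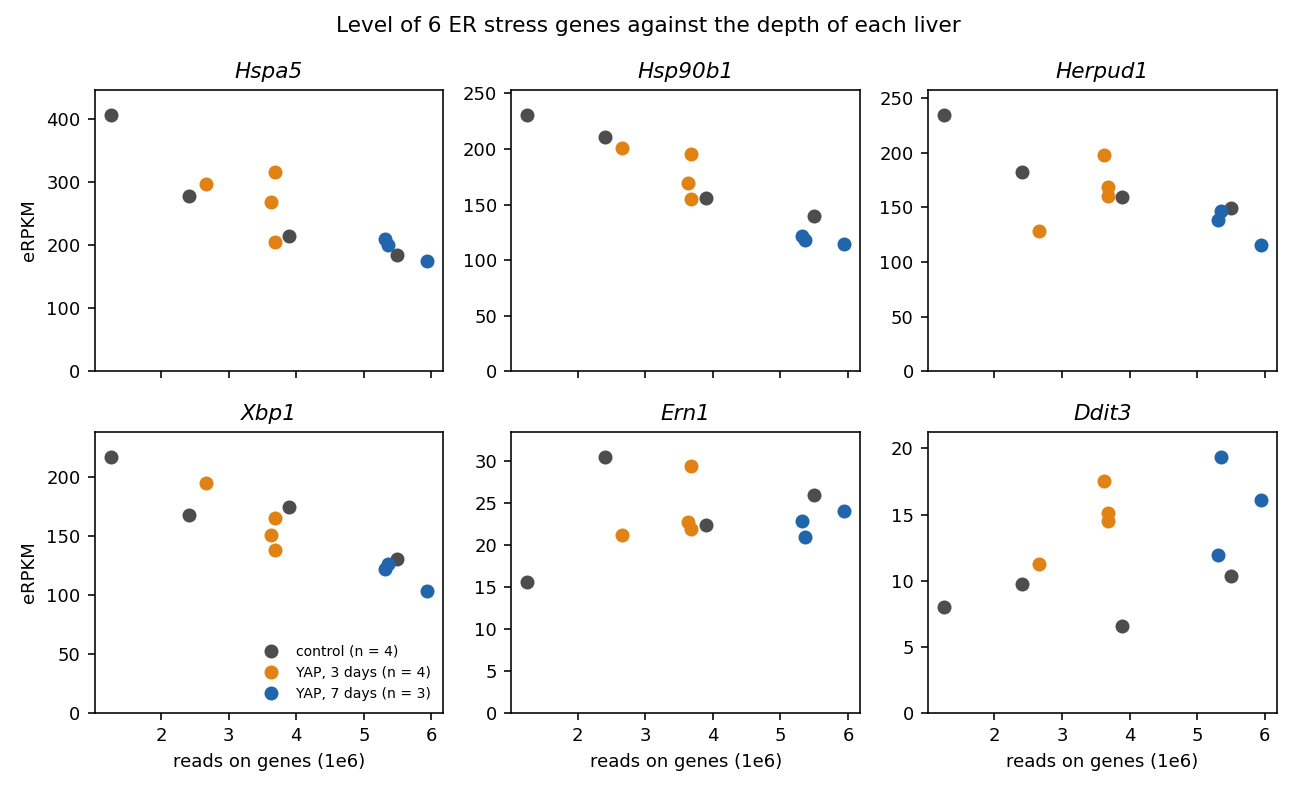
Level (eRPKM) of 6 ER stress genes against the reads on genes of each liver (in units of 1e6); each point is a liver, coloured by group. Among the controls Hspa5, Hsp90b1 and Herpud1 were lower the deeper the library; Ddit3 was not, and its 3-day and 7-day livers lay above all controls.

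Among the sensors, Ern1 (chr11:106255964-106349166, minus strand), the kinase and endonuclease that splices Xbp1, was at 22.4, 25.9, 30.5 and 15.6 eRPKM in controls, at 21.2, 22.8, 29.5 and 22.0 at 3 days, and at 20.9, 24.1 and 22.8 at 7 days. All induced livers lay within the range of the controls. Its log2 fold change was 0.04 at 3 days and -0.02 at 7 days (limma adjusted p = 0.944), with a 95% interval for the 7-day fold of 0.72 to 1.34. Atf6 (chr1:172634588-172797902, minus strand), the membrane-bound precursor of a transcription factor, was at 49.3, 43.5, 43.0 and 36.3 eRPKM in controls, at 42.6, 39.3, 31.0 and 46.0 at 3 days, and at 39.3, 32.5 and 38.9 at 7 days. Its groups overlapped in each comparison, and its 7-day log2 fold change was -0.22 (SE 0.16, limma adjusted p = 0.326). The other sensor, Eif2ak3 (PERK), which was looked at beside the 10, stood at 8.28 ± 2.46 eRPKM in controls (SD, n = 4), 9.60 ± 1.12 at 3 days (n = 4) and 12.3 ± 2.47 at 7 days (n = 3). Its 7-day log2 fold change of 0.56 (SE 0.23, limma adjusted p = 0.0694) was not called.

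Xbp1 (chr11:5420662-5425896, plus strand) encodes the transcription factor made active by ERN1. It was at 174, 130.0, 168 and 216 eRPKM in controls, at 195, 150.5, 138 and 165 at 3 days, and at 126, 103 and 122 at 7 days. The 7-day livers lay below all controls and all 3-day livers, with the highest of them close to control liver 2 (126 against 130.0 eRPKM). On the log2 scale the difference from control was -0.07 at 3 days (SE 0.17, limma adjusted p = 0.897) and -0.53 at 7 days (SE 0.19, adjusted p = 0.0375, exact two-sided permutation p = 0.0571). With log2 depth as a covariate it was -0.21 at 7 days (adjusted p = 0.319), and under quantile normalization -0.01.

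Atf4 (chr15:80085614-80087970, plus strand) encodes the transcription factor whose translation rises when eIF2α is phosphorylated, a step that its mRNA level does not show. It was at 82.1, 85.5, 100.7 and 104.8 eRPKM in controls, at 113, 101, 81.0 and 107 at 3 days, and at 80.8, 75.3 and 74.5 at 7 days. The 7-day livers lay below all controls and all 3-day livers, but the highest of them (80.8 eRPKM) was close to the lowest control (82.1) and the lowest 3-day liver (81.0). In log2 fold change it was at 0.10 at 3 days (SE 0.14, limma adjusted p = 0.805) and -0.27 at 7 days (SE 0.15, adjusted p = 0.178).

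Ddit3 (chr10:126727830-126733344, plus strand) encodes CHOP, a transcription factor that favours cell death under lasting ER stress. It was at 6.57, 10.3, 9.72 and 8.02 eRPKM in controls, at 11.3, 17.5, 15.1 and 14.5 at 3 days, and at 19.3, 16.1 and 12.0 at 7 days. All 4 livers at 3 days and all 3 at 7 days were above every control. Non-overlap in this direction held for 3.38% of all tested genes at 3 days and for 36.7% at 7 days. The log2 fold change was 0.73 at 3 days (SE 0.20, limma adjusted p = 0.158, exact two-sided permutation p = 0.0286, the smallest that 4 against 4 livers allow), a fold of 1.65 with a 95% interval of 1.22 to 2.25. At 7 days it was 0.83 (SE 0.22, adjusted p = 0.0105, exact permutation p = 0.0571), a fold of 1.77 with an interval of 1.27 to 2.47, just short of the adjusted p of 0.01 used for a call. Between the YAP groups it was 0.10 (SE 0.22, adjusted p = 0.746). These values rest on few reads, 9 to 51 per control liver, 27 to 57 at 3 days and 57 to 93 at 7 days. In GENCODE M1, exons of Ddit3 overlap Mars, the methionyl-tRNA synthetase gene, and RP24-341K21.6. Here too the libraries had no strand, and how reads on shared exons were counted is not known. Mars itself was at a log2 fold change of -0.10 at 3 days and 0.29 at 7 days (limma adjusted p = 0.267).

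Among the livers with more Xist than Ddx3y (2 controls, 2 at 3 days, 3 at 7 days), the log2 fold change of Ddit3 was 0.54 at 3 days (limma adjusted p = 0.667) and 0.61 at 7 days (adjusted p = 0.0771). In the same livers that of Hsp90b1 at 7 days was -0.54 (adjusted p = 0.0906) and that of Xbp1 was -0.34 (adjusted p = 0.22). No comparison within livers with more Ddx3y than Xist was possible at 7 days, since no 7-day liver was of that kind. The part of sex in these values was not tested beyond this and a covariate for Xist.

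Trib3 (chr2:152163158-152169768, minus strand) encodes a pseudokinase raised by ATF4 and CHOP. It was at 19.1, 10.5, 16.3 and 9.83 eRPKM in controls, at 12.4, 7.43, 5.40 and 12.6 at 3 days, and at 15.8, 6.44 and 6.68 at 7 days. The spread within each group was as wide as the differences between groups, with a coefficient of variation of 32.3% in controls, 38.2% at 3 days and 55.4% at 7 days. Its log2 fold changes were -0.56 at 3 days (SE 0.34, limma adjusted p = 0.541) and -0.57 at 7 days (SE 0.37, adjusted p = 0.242).

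**Figure D3:**
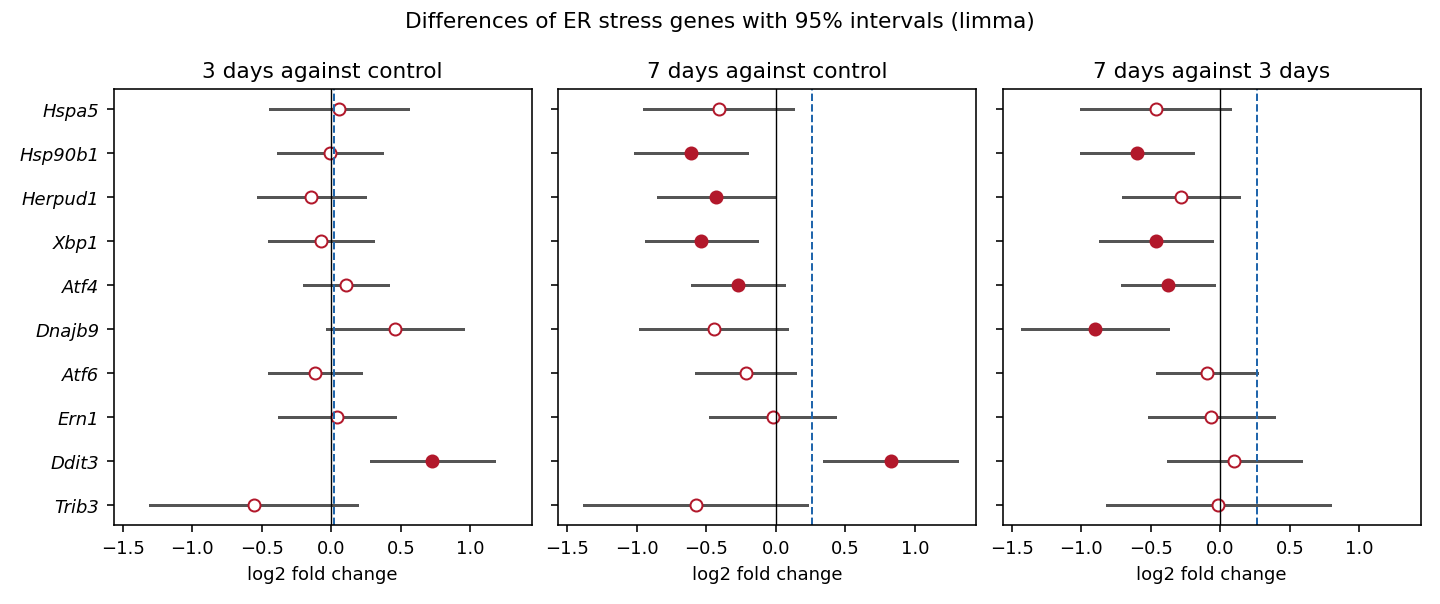
Log2 fold changes of the ER stress genes in the 3 comparisons (points) with 95% intervals from limma (lines); filled points mark genes whose groups did not overlap, and the dashed line is the median of all tested genes. At 3 days only Ddit3, at 0.73, stood clear of the controls; at 7 days 9 of 10 values were below 0 and Ddit3 was at 0.83.

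Of the 10 genes, the groups did not overlap for Ddit3 alone at 3 days (higher, beside 3.38% of all tested genes, with 2.25% lower). At 7 days against control they did not overlap for 5 genes, Ddit3 higher (beside 36.7% of all tested genes) and Hsp90b1, Xbp1, Herpud1 and Atf4 lower (beside 13.3%). At 7 days against 3 days they did not overlap for 4 genes, all lower (beside 13.8%, with 31.3% higher), namely Hsp90b1, Xbp1, Atf4 and Dnajb9. Both comparisons use the same 7-day livers, which were all deeper than the 3-day livers and than control livers 1, 3 and 4. Control liver 2 was deeper than 7-day livers 1 and 3 but not than 7-day liver 2. Under a looser rule, an adjusted p under 0.05 whatever the fold change, none of the 10 passed at 3 days (beside 0.288% of all tested genes, 0.281% higher and 0.00702% lower). By this rule 3 genes passed at 7 days against control (beside 37.8%), with Hsp90b1 and Xbp1 lower (beside 9.98%) and Ddit3 higher (beside 27.9%). Against 3 days 2 passed (beside 35.7%), Dnajb9 and Hsp90b1, both lower (beside 10.3%, with 25.4% higher).

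Hspa5, Hsp90b1, Xbp1 and Atf4 varied together from liver to liver. Over the 11 livers, Pearson's r of the log2 levels was 0.92 between Hsp90b1 and Xbp1, 0.91 between Hspa5 and Hsp90b1, 0.90 between Hsp90b1 and Atf4, and 0.87 between Hspa5 and Xbp1. After removal of the group means these were 0.81, 0.94, 0.84 and 0.85. Between Hspa5 and Atf4 r was 0.87 over the 11 livers and 0.83 within groups, and between Atf4 and Xbp1 0.81 and 0.70. Other pairs were about as close as the last, with 0.83 and 0.67 between Atf4 and Dnajb9, and 0.80 and 0.78 between Atf6 and Trib3. Ern1 and Ddit3 did not share the pattern of Hspa5, Hsp90b1, Xbp1 and Atf4. Within groups, r of Ern1 was -0.74 to Xbp1, -0.71 to Hspa5, -0.53 to Atf4 and -0.48 to Hsp90b1, and -0.81 to Dnajb9, the lowest of the 45 pairs. That of Ddit3 within groups was -0.51 to Xbp1, -0.22 to both Hspa5 and Hsp90b1, and 0.0022 to Atf4. Values of one liver share its library and depth, and these correlations are given as a description.

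The scaling of the libraries changed the sign of 3 of the 10 values at 7 days against control. It also moved the median of all tested genes, from 0.26 as deposited to 0.02 with median-ratio size factors and -0.08 with quantile normalization, and the split of called genes, from 2561 higher and 822 lower to 1948 and 1281 and to 1857 and 1821. As deposited, the median of the 10 lay 0.68 below that of all tested genes on the log2 scale. With size factors it lay 0.71 below, with log2 depth as a covariate 0.28 below, and with quantile normalization 0.04 above. Under quantile normalization the 7-day log2 fold change was 0.33 for Hspa5, 0.11 for Herpud1 and 0.04 for Atf4, that of Hsp90b1 was -0.06, and that of Trib3 was -1.14. Ddit3 was above 0 at both times under all alternatives tried, from 0.54 to 0.84 at 3 days and from 0.39 to 1.01 at 7 days, with an adjusted p between 0.0081 and 0.146 at 7 days.

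**Figure D4:**
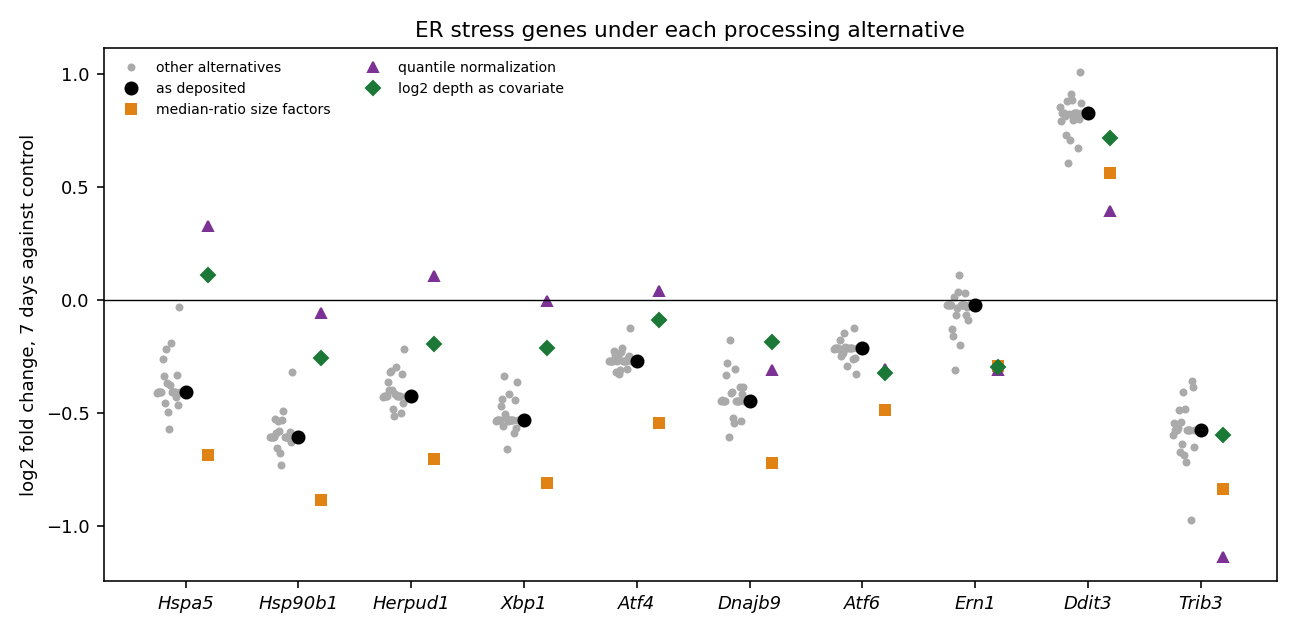
Log2 fold change at 7 days against control of each ER stress gene under the processing alternatives (points); black circles are values as deposited. Hspa5 ranged from -0.69 with size factors to 0.33 with quantile normalization, whereas Ddit3 stayed between 0.39 and 1.01.

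Beyond the 10, 6 lists of other genes of the unfolded protein response were examined, none of them holding any of the 10. At 3 days no gene of any list was called, beside 0.0421% of all tested genes. The 73 tested genes of chaperones, disulphide folding, degradation and translocation had a 3-day median log2 fold change of 0.16. That of all tested genes was 0.02. With size factors the median of the 73 lay 0.14 above that of all tested genes, and with quantile normalization 0.08 above. With log2 depth as a covariate it lay 0.18 above. At 7 days the genes that fold, quality-check and import ER proteins (chaperones, disulphide folding, degradation and translocation, 73 tested genes in 4 lists) held no gene that rose and 2 that fell (2.74%), beside 18.0% of all tested genes that rose and 5.77% that fell. Their median log2 fold change was -0.12, where that of all tested genes was 0.26. With size factors 6 of the 73 fell (8.22%, beside 8.99% of all tested genes), with quantile normalization 1 rose and 3 fell (4.11%, beside 12.8% that fell), and with log2 depth as a covariate none was called (beside 7.72% that rose and 4.05% that fell). Ero1lb, the oxidase that supplies disulphides in secretory cells, fell from 33.0 ± 2.53 eRPKM in controls (SD, n = 4) to 18.6 ± 1.23 at 7 days (n = 3), by 0.81 on the log2 scale (SE 0.20, limma adjusted p = 0.00676). Derl2, a channel component of ER-associated degradation, fell from 53.3 ± 5.67 eRPKM to 32.5 ± 1.52, by 0.70 on the log2 scale (SE 0.17, adjusted p = 0.00642). Under 26 settings, the one as deposited included, Ero1lb was called in 14 and Derl2 in 16.

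Against 3 days, 7 of these 73 genes fell at 7 days (9.59%, beside 5.31% of all tested genes) and none rose. Besides Ero1lb (-1.13) and Derl2 (-0.88), they were Cnpy2 (-0.95), Spcs3 (-0.76), Dnajc3 (-0.73), Edem1 (-0.64) and Tmx1 (-0.53), the last 5 named after their values were seen. SPCS3 is a subunit of signal peptidase, DNAJC3 a cochaperone of BiP and EDEM1 a lectin-like factor of degradation. All of the genes that fell had a higher mean at 3 days than in controls. Tmx1 was at 47.1 ± 1.75 eRPKM in controls (SD, n = 4), 62.5 ± 7.84 at 3 days (n = 4) and 43.0 ± 0.547 at 7 days (n = 3). Ero1lb was at 33.0 ± 2.53, 42.5 ± 11.8 and 18.6 ± 1.23. The order of the shares depended on the scaling, with 5 of 73 (6.85%) beside 10.04% of all tested genes under quantile normalization and 2 of 73 (2.74%) beside 4.13% with log2 depth as a covariate. In libraries with more Xist than Ddx3y none of the 73 was called in this comparison, beside 7.18% of all tested genes that rose and 2.82% that fell.

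**Figure D5:**
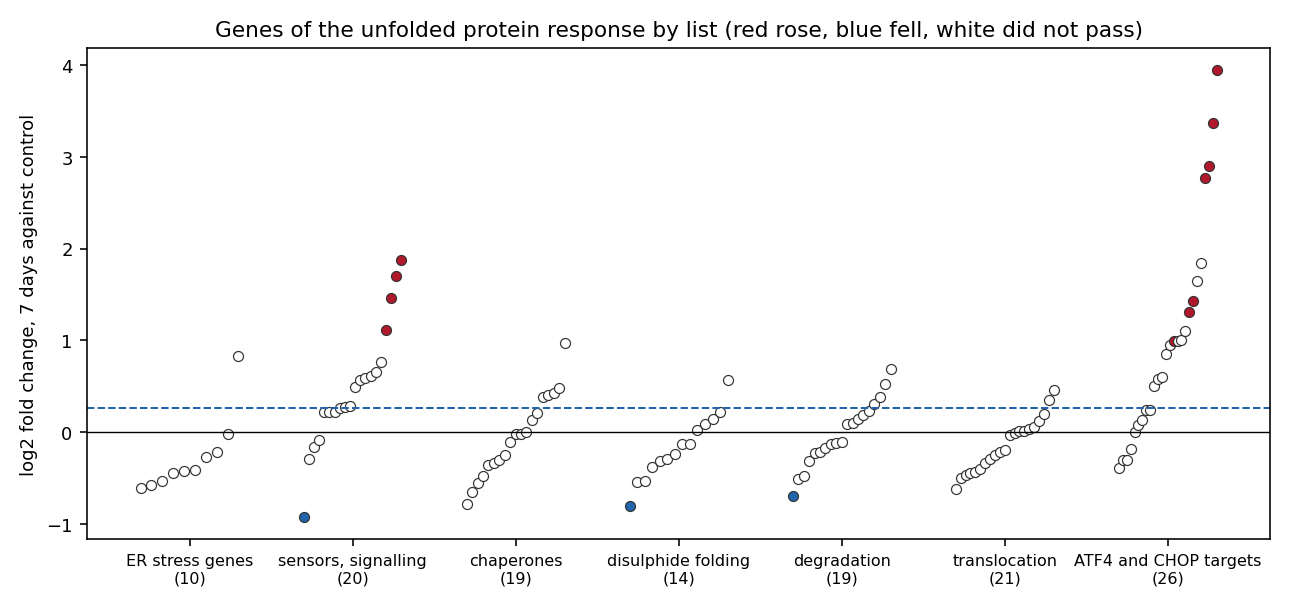
Log2 fold change at 7 days against control of the 10 ER stress genes and of the tested genes of 6 lists of the unfolded protein response (number in parentheses); red points rose, blue points fell and white points did not pass, and the dashed line is the median of all tested genes, 0.26. No gene of the 4 lists of folding, degradation and translocation rose, and 7 of 26 ATF4 and CHOP targets did.

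Of the 26 tested targets of ATF4 and CHOP, 7 rose at 7 days and none fell (26.9%, beside 18.0% of all tested genes that rose). Their median log2 fold change was 0.90. Gdf15, a stress-induced circulating factor, was at 1.25, 1.39, 0.869 and 1.67 eRPKM in controls, at 3.40, 4.23, 7.77 and 4.55 at 3 days and at 35.0, 15.1 and 36.0 at 7 days. The 7-day rise was 3.94 on the log2 scale (SE 0.34, limma adjusted p = 6.1e-06), and at 3 days, where all livers lay above the controls, the value was 1.57 (SE 0.31, adjusted p = 0.0617). Ddit4, an inhibitor of mTORC1 signalling, rose from 3.17 ± 0.99 eRPKM (SD, n = 4) to 37.0 ± 9.91 (n = 3), by 3.37 on the log2 scale (SE 0.30, adjusted p = 7.9e-06). Atf3, a transcription factor of the same family as ATF4, rose from 1.53 ± 0.593 eRPKM to 14.6 ± 4.09, by 2.90 (SE 0.29, adjusted p = 1.6e-05). In controls these genes were counted with few reads, 3 to 11 per liver for Gdf15, 4 to 40 for Ddit4 and 3 to 28 for Atf3. All 3 were called in 26 of 26 settings.

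The other 4 that rose were named after their values were seen. Psat1 and Psph, enzymes of serine synthesis, rose by 2.77 and 1.42 on the log2 scale, and the transporter genes Slc7a1 and Slc3a2 by 1.31 and 0.99. Other genes of the list with a part in amino acid supply were not called, such as Phgdh at 2.34 ± 1.05 eRPKM in controls and 2.74 ± 1.64 at 7 days, Asns at 3.60 ± 5.01 and 2.06 ± 2.04, Slc7a11 at 2.36 ± 0.222 and 1.84 ± 0.394, and Shmt2 at 76.7 ± 3.35 and 63.0 ± 12.7 (SD, n = 4 and 3). Some uncalled genes had higher means at 7 days, such as Mthfd2 at 1.07 ± 0.603 and 5.13 ± 4.49, and Slc7a5 at 2.05 ± 0.252 and 3.39 ± 0.734. Of the 26 log2 fold changes, 21 were above 0 and 5 below. Psat1 was called in 26 of 26 settings, Psph in 23, Slc7a1 in 13 and Slc3a2 in 11. The count of this list that rose was 10 with limma-voom on recovered reads (38.5%, beside 19.7% of all tested genes), 5 with size factors (19.2%, beside 13.7%) and 5 with log2 depth as a covariate (19.2%, beside 7.72%). Under quantile normalization 4 rose (15.4%, beside 13.0%) and 1 fell. Several of these genes are also known to respond to p53 or to amino acid shortage, and the source of the signal was not tested.

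Of the 20 tested genes of the sensors and their signalling, 4 rose at 7 days and 1 fell (20% and 5%, beside 18.0% and 5.77%). Bax and Bak1, which permeabilise mitochondria in cell death and also bind ERN1, rose by 1.88 (SE 0.19, limma adjusted p = 1.6e-05) and 1.46 (SE 0.28, adjusted p = 0.00155) on the log2 scale. Ppp1r15a (GADD34), which guides the phosphatase that reverses eIF2α phosphorylation, was at 5.77, 6.67, 5.36 and 2.11 eRPKM in controls and at 16.8, 13.6 and 18.6 at 7 days, a rise of 1.71 (SE 0.32, adjusted p = 0.00122). Atf6b, the relative of Atf6, rose by 1.11 (adjusted p = 4.9e-04) and was named after its values were seen. Creb3l3, a hepatocyte transcription factor released from the ER membrane like ATF6, was at 109, 103, 132 and 131 eRPKM in controls and at 59.3, 65.8 and 60.7 at 7 days, and fell by 0.93 on the log2 scale (SE 0.15, adjusted p = 5.5e-04). Creb3l3, Bax and Atf6b were called in 26 of 26 settings, Ppp1r15a in 25 and Bak1 in 23. With log2 depth as a covariate 2 genes of this list rose (10%, beside 7.72% of all tested genes) and 1 fell (5%, beside 4.05%).

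Markers of some cell types also differed at 7 days. Summed over 7 genes, macrophage markers ranged from 188 to 393 eRPKM among controls, from 220.0 to 424 among 3-day livers and from 792 to 850.0 among 7-day livers, and 6 of the 7 rose. All 5 markers of cycling cells rose, with sums of 3.90 to 17.2 eRPKM among controls, 12.7 to 93.6 among 3-day livers and 92.2 to 142 among 7-day livers. Hepatocyte markers had sums of 1384 to 3939 eRPKM among controls, 1676 to 2097 among 3-day livers and 1121 to 1238 among 7-day livers. Of these 7 markers 2 fell. Their median log2 fold change went from -0.88 as deposited to -0.19 with log2 depth as a covariate and -0.02 with quantile normalization. Under either of these settings 1 of the 7 fell (14.3%, beside 4.05% of all tested genes with depth and 12.8% with quantile normalization). Alb and Apoa1, which are among them, lay in the exact reverse order of depth in the controls. Markers of plasma and B cells, cells with a large ER, had sums of 4.57 to 9.97 eRPKM among controls, 1.37 to 4.52 among 3-day livers and 5.04 to 14.0 among 7-day livers, and none of 5 tested was called. Endothelial markers counted 2 of 7 that rose (28.6%) and stellate markers 1 of 7 that fell (14.3%). Biliary and T cell markers each counted 1 of 5 that rose (20%). Of all tested genes 18.0% rose and 5.77% fell. With log2 depth as a covariate 1 endothelial marker rose, 1 stellate marker fell and no biliary or T cell marker was called. In that fit 7.72% of all tested genes rose and 4.05% fell. The part of these cells in the values of the ER stress genes was not tested.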

How the data were processed

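The 11 libraries were TruSeq v2, without strand. The authors masked bases of low quality, mapped the pairs on mm9 (TopHat 2.0.8) and listed featureCounts 1.4.5-p1 and DESeq2 among their tools. The gene annotation and the handling of duplicate reads are not given in the sources used here. The deposited values are eRPKM, an RPKM per gene and liver made by the authors, with no scaling between libraries. The table also holds 3 columns of the authors' own comparison of 7 days with control (a mean, a fold change and an adjusted p), which were not used. With the step chosen for each gene, 177553 of 177553 values above 0 (100.0%) lay within 0.1 of a whole read. That step was the largest found to make all values of the gene whole, so this share is not an independent check. Recovered reads gave the depth and one alternative fit.

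Groups followed the labels. The test was limma 3.58.1 in R 4.3.3 (eBayes with trend) on log2(eRPKM + 0.5) of genes that reached 0.5 eRPKM in 3 or more libraries, 3 groups in one fit without covariate, so fold changes of low genes are understated. p-values measure the spread between mice. Single genes also got exact two-sided permutation tests over livers (scipy 1.17.1; 30 tests over the members). The fit was tested on simulated data. All members are named in each comparison, Eif2ak3 always, and from each list the 3 largest rises and falls among called genes with no overlap and a mean of at least 1 eRPKM at 7 days. A rule to name genes most like a called member named none. The members, lists and tests were chosen with earlier results of these data known. Of 22 genes listed for degradation 19 were found by symbol. GENCODE M1 on mm9 gave gene positions and overlapping exons. Python 3.11.15 with numpy 2.4.6, pandas 2.3.3 and matplotlib 3.10.9 was used.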

Additional observations from a re-analysis of the deposited data

How the results depend on the processing

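No ER stress gene was called at 3 days under any alternative tried. At 7 days against control 1 was called with a mean of at least 1 eRPKM or with the label suffix MF as covariate (Ddit3), and 3 at an adjusted p under 0.05 whatever the fold change. Leaving out each liver gave 0 to 1 (Hsp90b1 without control liver 2, Ddit3 without 3-day liver 1 or 7-day liver 3). At 7 days against 3 days 1 was called in a fit of those groups alone (Hsp90b1), 1 with limma-voom on recovered reads (Dnajb9), 1 with the 2 deepest controls (Hsp90b1), and 2 at an adjusted p under 0.05. Leaving out each liver gave 0 to 1 (Dnajb9 without control liver 4 or 3-day liver 3). Over all genes voom called 2800 higher and 949 lower at 7 days against control, and 2723 higher and 889 lower against 3 days. With the 2 deepest controls 14.5% of all tested genes were higher and 6.02% lower against 3 days. As deposited 23.8% of all tested genes were called at 7 days against control and 19.3% against 3 days. The shares under the other settings are not given here, so these single calls are not read as results about the genes named.

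Single log2 fold changes, all uncalled, changed sign as follows, and the cause was not tested. At 3 days against control, Hsp90b1 became 0.063 with quantile normalization, 0.084 with log2 depth, 0.020 in livers with more Xist than Ddx3y, 0.017 with voom and 0.28 with the 2 deepest controls. Xbp1 became 0.0097 with depth, 0.030 in livers with more Xist and 0.095 with the deepest controls. Ern1 became -0.073 with quantiles, -0.029 with depth, -0.14 in livers with more Xist and -0.026 with the deepest controls. Hspa5 became -0.016 with the suffix MF, and Herpud1 0.022 with it and 0.066 with the deepest controls. At 7 days against control, quantiles gave Hspa5 0.33, Atf4 0.037 and Herpud1 0.11, depth gave Hspa5 0.11 and the suffix MF gave Ern1 0.010. Against 3 days, quantiles gave Hspa5 0.11, Ddit3 -0.23, Xbp1 0.037 and Herpud1 0.22. Ddit3 became -0.14 with size factors and -0.0058 with the Xist covariate. Trib3 became 0.076 with the Xist covariate, 0.035 with the suffix MF and 0.087 in livers with more Xist. Leaving out each liver moved the 3-day values of Hspa5 from -0.11 to 0.27, Hsp90b1 from -0.13 to 0.11, Xbp1 from -0.20 to 0.043 and Ern1 from -0.14 to 0.18, the 7-day value of Ern1 from -0.20 to 0.11, and the values between YAP groups of Ddit3 from -0.055 to 0.28, Ern1 from -0.12 to 0.038 and Trib3 from -0.42 to 0.20.

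The comparison with the 2 deepest controls was chosen after seeing the data. Deviations of same-numbered livers correlated at -0.222 to 0.269, and those of livers with other numbers at -0.275 to 0.238. The livers also differed in sex and depth, so these values cannot decide whether the numbers pair them. No source used here says that they do. The replicate block left 0 calls in each comparison, with Ddit3 at 0.81 at 7 days. Ddit3 and Trib3 had as few as 9 and 26 reads in a control liver, and the level of Hspa5 in the shallowest control was 2.21 times that in the deepest.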
